A study of Homo sapiens with 6 samples.

Results

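The heat shock protein and DNAJ chaperone genes were taken from the count table by gene symbol: the HSPA, HSPB, HSP90 and DNAJ A, B and C families together with HSPD1, HSPE1 and HSPH1. Of 19201 entries, 81 matched these names. After 3 antisense names and 12 pseudogenes were left out, 66 entries remained. They comprised 63 chaperone genes and 3 entries that carry a chaperone symbol without being a chaperone gene of their own: the read-through DNAJC25-GNG10 and the divergent transcripts DNAJC3-DT and DNAJA2-DT. All 63 chaperone genes passed the filter on low counts.

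The RNA came from H1299, a human lung cancer line in long use that lacks p53. There were 3 libraries of cells labelled wildtype, the controls, and 3 of cells labelled for overexpression of lncBCAS1-4_1, a long non-coding RNA. Neither group's labels name a vector or clone, so the procedure of overexpression and the RNA itself cannot be told apart. No label says that the replicates were separate cultures. Each p-value here therefore sets the difference between groups against the spread among libraries of the same group, and that spread may be technical. The series is titled for a link of this RNA to CYP24A1, the enzyme that inactivates vitamin D, in lung cancer. The one comparison that the labels allow asks how overexpression changes the transcriptome.

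Library totals lay between 84531039 and 92780032 counts. Of 5 epithelial markers 3 were measured, the keratins KRT8, KRT18 and KRT7, which summed to 1261 to 1428 CPM (counts per 1e6 library counts, TMM-scaled) in the controls and to 1677 to 1890 CPM in the overexpressing libraries, and their part in the results below was not tested. The lineage markers looked for otherwise were near 0 or not analysed here: endothelial markers (PECAM1 and VWF) summed to at most 0.901 CPM and fibroblast markers (COL1A1 and DCN) to at most 2.47 CPM in any library. CD68, a lysosomal protein also made outside macrophages, was the only leukocyte marker measured, at 69.6 to 73.9 CPM in the controls and 79.3 to 87.8 CPM in the overexpressing libraries. In such bulk samples, fewer cells of a type and less RNA per cell cannot be told apart. GC-rich transcripts tended to be higher and AT-rich ones lower: the Spearman coefficient of GC content with log2 fold change was 0.72 across 10128 genes whose mean log2 CPM exceeded 3 (genes of one set of libraries, not replicates). Each change is therefore given as fitted and again as a corrected value, from a fit in which the trends of counts with GC content and with length were removed library by library. By edgeR as fitted, KRT8, KRT18, KRT7 and CD68 were higher (log2 fold change 0.28, 0.44, 0.87 and 0.21, adjusted p under 0.05). Corrected, KRT7 still passed (0.50, adjusted p = 0.036), and KRT8, KRT18 and CD68 did not (-0.06, 0.13 and -0.07).

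Molecular chaperones bind proteins that are not yet folded or have lost their fold. HSP70 proteins (the HSPA genes) do so in cycles of ATP hydrolysis. J-domain proteins (the DNAJ genes) deliver substrates to HSP70 and trigger that hydrolysis, HSP110 proteins (HSPH1, HSPA4 and HSPA4L) act as nucleotide exchange factors, and HSP90 works downstream on signalling proteins. Small heat shock proteins hold unfolded proteins without using ATP, and HSPD1 with its lid HSPE1 forms the folding chamber of the mitochondrial matrix. Cytosolic members are induced by heat shock factor HSF1 through heat shock elements, and members of the endoplasmic reticulum (ER) by the unfolded protein response through ER stress elements.

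Promoter sequences are shown for members whose results are set side by side below: HSPA5 and HSP90B1 for the ER, and HSPA6, HSPA1A, HSPA1B and HSP90AA1 for the cytosol. They are the bases just before a RefSeq start site on GRCh38.p14, 5′ to 3′ on the strand of the gene. Capitals mark, on either strand, an ER stress element in HSPA5 and HSP90B1 (CCAAT, then 9 bases of any kind, then CCACG). In the others they mark a 13-base heat shock element (GAA and TTC blocks in turn, 3 in all, with NN between blocks) or its 8-base part (GAANNTTC or TTCNNGAA).
HSPA5, chr9:125241344-125241463, minus strand: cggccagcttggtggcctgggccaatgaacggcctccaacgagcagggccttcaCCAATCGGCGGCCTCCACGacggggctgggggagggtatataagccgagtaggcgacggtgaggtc
HSP90B1, chr12:103930210-103930409, plus strand: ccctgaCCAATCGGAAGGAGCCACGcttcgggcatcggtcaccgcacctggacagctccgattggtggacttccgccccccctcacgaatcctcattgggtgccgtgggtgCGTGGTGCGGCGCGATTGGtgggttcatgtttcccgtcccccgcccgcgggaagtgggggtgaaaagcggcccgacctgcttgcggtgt
HSPA6, chr1:161524420-161524539, plus strand: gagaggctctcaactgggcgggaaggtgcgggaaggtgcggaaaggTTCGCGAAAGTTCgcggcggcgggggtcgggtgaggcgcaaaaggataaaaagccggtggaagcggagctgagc
HSPA1A, chr6:31815423-31815542, plus strand: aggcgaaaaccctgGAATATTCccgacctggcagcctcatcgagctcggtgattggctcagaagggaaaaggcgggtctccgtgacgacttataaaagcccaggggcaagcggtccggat
HSPA1B, chr6:31827618-31827737, plus strand: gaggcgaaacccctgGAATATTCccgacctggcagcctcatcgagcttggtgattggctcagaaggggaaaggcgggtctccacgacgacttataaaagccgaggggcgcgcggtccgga
HSP90AA1, chr14:102087045-102087164, minus strand: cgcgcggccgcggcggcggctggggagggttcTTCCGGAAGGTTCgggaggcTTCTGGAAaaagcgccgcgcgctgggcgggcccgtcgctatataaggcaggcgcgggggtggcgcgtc

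RefSeq promoter windows, from 250 bases before to 50 after a start, were matched by symbol for 57 of the 63 members and comprised 76 windows. The ER stress element was in 0.0769% of all 35116 windows and, among the members, in those of HSPA5 and HSP90B1. HSP90B1 held 2 copies, 1 on each strand. The 13-base heat shock element was in 0.49% of all windows and in those of 7 members: HSPA6, HSPA8, HSP90AA1, HSP90AB1, DNAJA1, DNAJB6 and HSPD1. Its 8-base part was in 13.5% of all windows and in those of 20 members, HSPA1A, HSPA1B and DNAJB1 among them. Members that share the 13-base element differed in direction: HSPA6 rose, HSP90AA1 and HSPD1 fell, and HSPA8, HSP90AB1, DNAJA1 and DNAJB6 did not pass the test as fitted. The unfolded protein response element TGACGTGG was found in the windows of 1 member, DNAJC10, and in 0.729% of all windows. A match is a run of letters and says nothing about binding.

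As fitted, 15 of the 63 chaperone genes were higher (18.3% of all 19101 entries tested were) and 12 were lower (19.7% of all entries were) after overexpression (adjusted p under 0.05). Their median log2 fold change was 0.02, beside -0.0041 over all entries. The share of lower members lay near the background, and members moved in both directions. After the correction 17 were higher, against a background of 10.7%, and 6 were lower, against 11.6%, with a median of 0.04. In both fits 7 were higher (background 7.1%) and 5 lower (background 7.88%). Of the 27 changes as fitted, 18 were under 1.5-fold, as were 5523 of the 7250 changes called among all entries. Only HSPA6 rose by more than 2-fold (1.77% of all entries did so with an unadjusted p under 0.05). No member fell below 0.5-fold, against a background of 1.18%. The ranges of the 2 groups were apart for 35 members, 17 higher and 18 lower, where 50.7% of all entries had groups apart.

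Ranked by control level per transcript length, the cytosolic genes HSP90AB1 (1531 CPM per kb), HSPA8 (1242 CPM per kb) and HSP90AA1 (565 CPM per kb) stood at the top of the family. The mitochondrial HSPD1 followed at 436 CPM per kb, and HSP90B1 and HSPA5 led the ER group at 201 and 124 CPM per kb. Summed over the 63 genes, the level was 14892 CPM for the controls and 14617 CPM after overexpression.

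**Figure D1:**
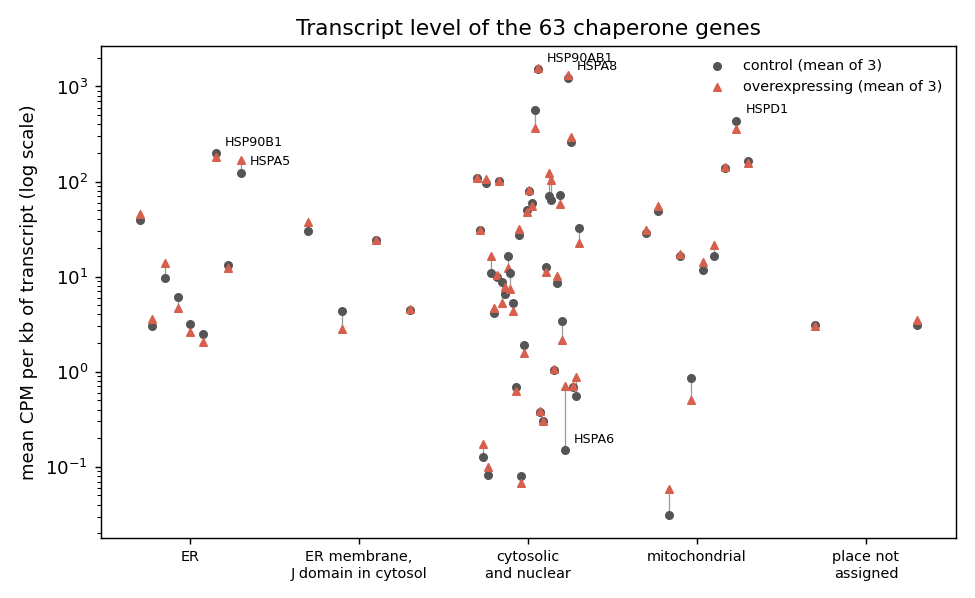
Mean level of each of the 63 chaperone genes in CPM per kb of canonical transcript (log axis), by cell compartment. Circles are the mean of 3 control libraries, triangles the mean of 3 overexpressing libraries, joined per gene. HSP90AB1 and HSPA8 are the highest points, and HSPA6 shows the widest gap, from 0.149 to 0.707 CPM per kb.

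In the ER, HSPA5 and its partners DNAJC1 and DNAJB11 rose. HSPA5 (BiP), the HSP70 of the ER lumen, which holds the sensors of the unfolded protein response inactive, was at 481, 488 and 493 CPM in the controls and at 652, 686 and 668 CPM in the overexpressing libraries. The groups did not overlap. The gene (ENSG00000044574, chromosome 9, 125234853 to 125241382, minus strand, GRCh38 by GENCODE 44) rose 1.37-fold from 487 ± 6.12 to 669 ± 17.3 CPM (mean ± SD of 3 libraries each, log2 fold change 0.46, SE 0.04, adjusted p = 0.00010 by edgeR's quasi-likelihood test with Benjamini-Hochberg adjustment, as for all adjusted p here). Its corrected value was 0.55 (SE 0.03, adjusted p = 1.7e-05).

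DNAJC1, an ER membrane J protein that recruits HSPA5, was at 21.3, 20.4 and 18.7 CPM in the controls and at 31.1, 28.2 and 27.3 CPM in the overexpressing libraries, a log2 fold change of 0.52 (SE 0.08, adjusted p = 0.0011; corrected 0.36, adjusted p = 0.0082). DNAJB11, a luminal co-chaperone that binds substrates for HSPA5, was at 64.0, 66.0 and 63.5 CPM against 76.8, 72.8 and 76.9 CPM, a smaller rise of 0.23 on the log2 scale (SE 0.04, adjusted p = 0.0033; corrected 0.23, adjusted p = 0.0039). For both genes every overexpressing library lay above every control library. HSPA5 and these J proteins were the 3 ER members that rose as fitted, and all 3 rose in the corrected fit. DNAJB11 overlaps TBCCD1 on the opposite strand, and no source used here says whether the counting used strand. The same holds for HSP90B1 with UQCC6, HSP90AA1 with WDR20, DNAJB1 with TECR, DNAJC2 with PMPCB and PSMC2, DNAJC9 with FAM149B1, DNAJC11 with THAP3 and DNAJC7 with CNP, whose reads cannot be told apart where they overlap.

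HSP90B1 (GRP94), the HSP90 of the ER and a partner of HSPA5, did not follow. It was at 550, 591 and 534 CPM in the controls and at 515, 483 and 531 CPM in the overexpressing libraries. The overexpressing libraries were slightly lower without passing the test (log2 fold change -0.13, SE 0.05, adjusted p = 0.075; corrected 0.04, SE 0.04, adjusted p = 0.52). Without overexpressing library 3 it passed as lower (-0.16, adjusted p = 0.048). HSPA5 and HSP90B1 both hold the ER stress element shown above, and the difference between their fold changes was not tested.

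The remaining ER members depended on the correction. DNAJB9, a luminal J protein that is a strong target of the XBP1 branch, was at 7.70, 7.0 and 7.14 CPM in the controls and at 9.11, 8.50 and 8.47 CPM, a log2 fold change of 0.26 (adjusted p = 0.088) that passed when corrected (0.54, adjusted p = 0.0083). HSPA13, a truncated HSP70 of the microsomes, was at 58.4, 54.5 and 44.2 CPM against 48.6, 44.6 and 54.2 CPM, so the groups overlapped (log2 fold change -0.09, adjusted p = 0.55), yet its corrected value of 0.35 passed (adjusted p = 0.0025). The GC content of their transcripts was low, at 37.3% and 34.5%.

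DNAJC10, a J-domain disulfide reductase of the ER, changed sign with the correction. It was at 125, 130 and 115 CPM in the controls and lower, at 96.7, 84.7 and 104 CPM, in every overexpressing library (log2 fold change -0.38, SE 0.08, adjusted p = 0.0041). The corrected value was 0.19 (adjusted p = 0.015), and -0.0034 (adjusted p = 0.97) when only GC content was corrected. The corrected call was lost without control library 1 (0.18, adjusted p = 0.063) or control library 2 (0.18, adjusted p = 0.064). Its canonical transcript is 20144 bases long with a GC content of 37.5%, and no direction is drawn for it.

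DNAJC3, a luminal J protein also called P58IPK, was at 15.7, 14.0 and 12.1 CPM against 11.4, 11.2 and 11.9 CPM. The difference of -0.28 on the log2 scale did not pass (adjusted p = 0.078; corrected 0.09), although it passed without control library 3 (-0.37, adjusted p = 0.024). DNAJC16, an ER membrane J protein, passed narrowly as lower (log2 fold change -0.28, adjusted p = 0.047; corrected -0.03, adjusted p = 0.82). That call was lost without any 1 of the libraries other than overexpressing library 3, with adjusted p from 0.050 to 0.15. In all, 3 of 9 ER members were higher and 2 lower as fitted, and 6 were higher and 0 lower by edgeR after the correction (6 and 0 at an unadjusted p under 0.05), with a median of -0.09 as fitted and 0.23 corrected. Over all entries 18.3% were higher and 19.7% lower as fitted, 10.7% and 11.6% corrected, and 16.2% and 18% corrected at an unadjusted p under 0.05. The ER transcripts had a median GC content of 41.8%, against 48.7% over all entries.

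Among 4 J proteins of the ER membrane whose J domain faces the cytosol, DNAJB12 rose by 0.29 on the log2 scale (adjusted p = 0.0023) and DNAJB14 fell (-0.63, adjusted p = 0.0086). The pair works together in the quality control of membrane proteins, and their transcripts differ in GC content (53.7% and 32.5%). Neither passed after the correction (0.11 and -0.09). DNAJC14 and DNAJC18 passed in neither fit, although DNAJC14 passed when corrected without overexpressing library 1 (-0.12, adjusted p = 0.044). Of the 4, 0 were called by edgeR after the correction, and 2 were higher and 1 lower at an unadjusted p under 0.05, where 16.2% and 18% of all entries were.

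**Figure D2:**
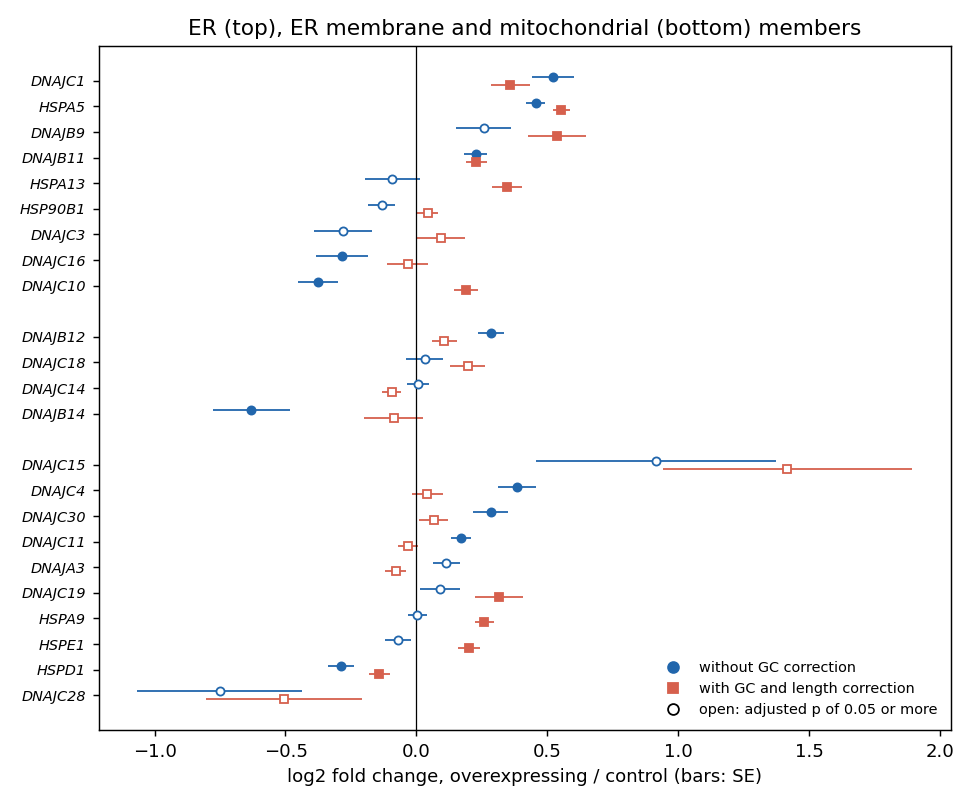
Log2 fold change (x axis) of the 9 ER members (top), the 4 ER membrane members and the 10 mitochondrial members (bottom), with the SE as bars. Circles are as fitted, squares corrected for GC content and length, and filled symbols have an adjusted p under 0.05. HSPA5, DNAJC1 and DNAJB11 are filled and right of 0 in both fits, and DNAJC10 lies on opposite sides.

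The stress-inducible HSP70 genes of the cytosol rose. HSPA1A was at 172, 166 and 164 CPM in the controls and at 294, 317 and 271 CPM in the overexpressing libraries, and HSPA1B at 164, 156 and 158 CPM against 259, 281 and 245 CPM. No library of one group reached into the range of the other for either gene. These intronless neighbours lie on the plus strand of chromosome 6, HSPA1A (ENSG00000204389) from 31815543 to 31817946 and HSPA1B (ENSG00000204388) from 31827738 to 31830254. HSPA1A rose by 0.81 on the log2 scale (SE 0.06, adjusted p = 5.1e-05) and HSPA1B by 0.72 (SE 0.05, adjusted p = 6.8e-05). Corrected values were 0.48 and 0.40, both past the threshold (adjusted p = 0.00026 and 0.00041).

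The canonical transcripts of HSPA1A and HSPA1B were identical at 94.7% of 2395 aligned bases, so how the authors' counting split reads between the copies is uncertain. Their sum does not depend on that split, but may depend on whether reads that match both copies were counted. It was 327 ± 7.64 CPM in control cells and 556 ± 41.1 CPM with overexpression (mean ± SD of 3 libraries each), a ratio of 1.70. Their promoters, shown above, carry the same 8-base element within a nearly identical stretch.

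HSPA6, a strictly inducible HSP70 that most unstressed cells barely express, had the highest fold change of the 63 members. It had 29, 37 and 30 counts in the controls and 127, 149 and 153 counts in the overexpressing libraries, or 0.325, 0.391 and 0.334 CPM against 1.505, 1.79 and 1.70 CPM. The rise was 4.74-fold (log2 fold change 2.24, SE 0.22, adjusted p = 0.00023; corrected 1.93, adjusted p = 0.00054). Even so its level stayed low: per kb of transcript it reached 0.707 CPM, where HSPA1A reached 122.5 CPM. HSPA6 (ENSG00000173110) lies on chromosome 1 from 161524540 to 161526894, plus strand.

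HSPA8, the constitutive HSP70 of the cytosol, was at 2914, 2739 and 2783 CPM in the controls and at 3067, 3075 and 2930 CPM in the overexpressing libraries. The groups did not overlap, as for 24.7% of all entries that lay above and 26% that lay below, but the difference of 0.10 on the log2 scale did not pass (adjusted p = 0.067; corrected 0.14, adjusted p = 0.069). Without overexpressing library 3 it did (0.13, adjusted p = 0.040; corrected 0.18, adjusted p = 0.024). HSPA2, an HSP70 best known from the testis, passed narrowly as higher (0.24, adjusted p = 0.048; corrected 0.0026). Its call was lost without any 1 library other than overexpressing library 1, with adjusted p from 0.051 to 0.17. HSPA1L, HSPA12A, HSPA12B and HSPA14, the ribosome-bound HSP70, passed in neither fit, with values as fitted from -0.15 for HSPA14 to 0.04 for HSPA1L.

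The HSP110 exchange factors, which reset HSP70, went the other way. HSPH1 was at 178, 175 and 157 CPM in the controls and at 117, 112 and 127 CPM in the overexpressing libraries, with no overlap (log2 fold change -0.52, SE 0.06, adjusted p = 0.00042). The corrected fall was smaller and still passed (-0.15, SE 0.03, adjusted p = 0.010). HSPA4 was at 355, 354 and 326 CPM against 277, 264 and 281 CPM, a log2 fold change of -0.33 (adjusted p = 0.00075) that did not pass when corrected (-0.07, adjusted p = 0.21). HSPA4L fell too (-0.68, adjusted p = 0.00072, corrected -0.16, adjusted p = 0.077). All 3 transcripts are AT-rich, with a GC content of 39.6%, 42.4% and 37.5% in that order.

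The cytosolic HSP90 genes differed from each other. HSP90AA1, the inducible form, was at 1964, 1933 and 1576 CPM in the controls and at 1245, 1044 and 1266 CPM in the overexpressing libraries. Control 3 lay below the other controls and still above every overexpressing library. The gene (chromosome 14, 102080742 to 102139699, minus strand) had a log2 fold change of -0.62, falling from 1824 ± 216 to 1185 ± 123 CPM (mean ± SD of 3 libraries each, SE 0.10, adjusted p = 0.0011), and its corrected value was -0.41 (SE 0.07, adjusted p = 0.0037). HSP90AB1, the constitutive form, was at 3962, 3909 and 3868 CPM against 4058, 3986 and 3858 CPM, with overlapping groups (log2 fold change 0.02, SE 0.04, adjusted p = 0.71; corrected 0.0037). Among the pseudogenes left out, HSP90AA2P, a copy of HSP90AA1 that can share its reads, also fell (-0.73, adjusted p = 0.0048; corrected -0.58).

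Small heat shock proteins gave no stable call. HSPB1 (HSP27), the abundant member, was at 195, 195 and 212 CPM against 249, 227 and 216 CPM. It was higher as fitted (0.20, adjusted p = 0.026) and lower when corrected (-0.12, adjusted p = 0.043), with the highest GC content of the 63 transcripts, 65.3%. Its rise as fitted was lost without control library 1 or 2 or overexpressing library 1 or 2 (adjusted p from 0.052 to 0.10), and the corrected fall was lost without any library other than overexpressing library 1 (adjusted p from 0.081 to 0.13). HSPB8, which works with BAG3 in selective autophagy, was near 1 CPM and rose from 1.02 ± 0.16 to 1.64 ± 0.17 CPM (mean ± SD of 3 libraries each, log2 fold change 0.68, adjusted p = 0.029; corrected 0.50, adjusted p = 0.12). The call was lost without control library 1 or 2 or overexpressing library 2 or 3 (adjusted p from 0.055 to 0.10). HSPB6 passed in neither fit (0.03 and -0.34).

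Among J proteins of the cytosol and nucleus, DNAJB2, a neuron-enriched J protein that also binds ubiquitin, rose in both fits. It was at 33.5, 31.4 and 35.2 CPM in the controls and at 50.3, 53.6 and 47.0 CPM in the overexpressing libraries, 1.51-fold higher (log2 fold change 0.59, SE 0.07, adjusted p = 0.00034; corrected 0.29, adjusted p = 0.0028). DNAJB1 (HSP40), the classical heat-inducible partner of HSPA1A, was at 224, 208 and 212 CPM against 239, 250 and 223 CPM. Its groups overlapped, and the difference of 0.14 did not pass (adjusted p = 0.058; corrected -0.05). It passed without overexpressing library 3 (0.19, adjusted p = 0.018).

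The class A proteins DNAJA1 and DNAJA2 are general partners of HSPA8. DNAJA1 was at 263, 257 and 245 CPM in the controls and at 259, 241 and 257 CPM in the overexpressing libraries, and DNAJA2 at 99.6, 93.8 and 87.7 CPM against 94.7, 90.3 and 95.2 CPM. Both had overlapping groups and differed by -0.02 and -0.0046 on the log2 scale as fitted. Their corrected values of 0.16 and 0.24 passed (adjusted p = 0.016 and 0.0026), but DNAJA1 was lost without control library 1 (0.16, adjusted p = 0.058) or 2 (0.15, adjusted p = 0.071). DNAJB4, at 12.7, 12.5 and 11.2 CPM against 13.1, 12.2 and 15.5 CPM, likewise passed only when corrected (0.16 as fitted and 0.57 corrected, adjusted p = 0.0013), from a transcript of 32.7% GC. DNAJB6, an inhibitor of amyloid aggregation, was at 267, 246 and 248 CPM against 244, 262 and 258 CPM and passed in neither fit (0.0065 and -0.07).

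The falling J proteins included DNAJC13, an endosomal protein that acts in membrane sorting. It was at 69.5, 71.4 and 62.6 CPM in the controls and at 42.5, 36.3 and 43.4 CPM in the overexpressing libraries, a log2 fold change of -0.74 (SE 0.08, adjusted p = 0.00026; corrected -0.37, adjusted p = 0.0015). DNAJC21, which helps recycle factors of the large ribosomal subunit, was at 69.5, 68.9 and 61.0 CPM against 44.7, 41.5 and 49.7 CPM (log2 fold change -0.55, SE 0.08, adjusted p = 0.00068). Its corrected value of -0.15 passed (adjusted p = 0.019), but not without control library 1 (-0.14, adjusted p = 0.078), control library 2 (-0.15, adjusted p = 0.073) or overexpressing library 2 (-0.13, adjusted p = 0.065). In both genes every overexpressing library was below every control.

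Other nuclear and cytosolic J proteins showed calls that one library could remove. DNAJC2, a ribosome-bound partner of HSPA14, was at 39.3, 43.2 and 31.0 CPM against 29.2, 24.9 and 30.3 CPM (log2 fold change -0.43, adjusted p = 0.022; corrected -0.22, adjusted p = 0.11). The call was lost without control library 1 or 2 or overexpressing library 1 or 2 (adjusted p from 0.052 to 0.085), and the corrected value passed without control library 3 (-0.30, adjusted p = 0.026). The histone chaperone DNAJC9, at 141, 139 and 133 CPM against 124, 121 and 131 CPM, passed narrowly as lower (-0.13, adjusted p = 0.047; corrected -0.01), and the synaptic vesicle protein DNAJC5 as higher (0.19, adjusted p = 0.030; corrected 0.03). Each was lost without control library 1 or 2 or overexpressing library 1 or 2, at adjusted p from 0.11 to 0.16 and from 0.093 to 0.11. DNAJC7, a tetratricopeptide J protein that links HSP70 to HSP90, was at 92.1, 90.3 and 91.1 CPM against 84.7, 87.8 and 86.1 CPM, groups that did not overlap, and still did not pass (-0.08, adjusted p = 0.14; corrected -0.07).

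The remaining cytosolic and nuclear members, DNAJA4, DNAJB5, DNAJB13, DNAJC5B, DNAJC6, DNAJC8, DNAJC17, DNAJC24 and DNAJC27, passed in neither fit. Their log2 fold changes ran from -0.29 for DNAJC24 to 0.46 for DNAJA4, which had at most 0.647 CPM in any library. DNAJC17, DNAJC24 and DNAJC6 passed without overexpressing library 3 (0.29, -0.39 and -0.35), and DNAJC17 also without control library 3 (0.29). Over the 38 cytosolic and nuclear genes, 8 were higher and 8 lower as fitted, 7 and 5 after the correction, and 4 and 4 in both. Of all entries, 18.3% and 19.7% were called so as fitted, 10.7% and 11.6% after the correction and 7.1% and 7.88% in both, and the shares of these members as fitted lay near that background. DNAJC12 was not analysed here.

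**Figure D3:**
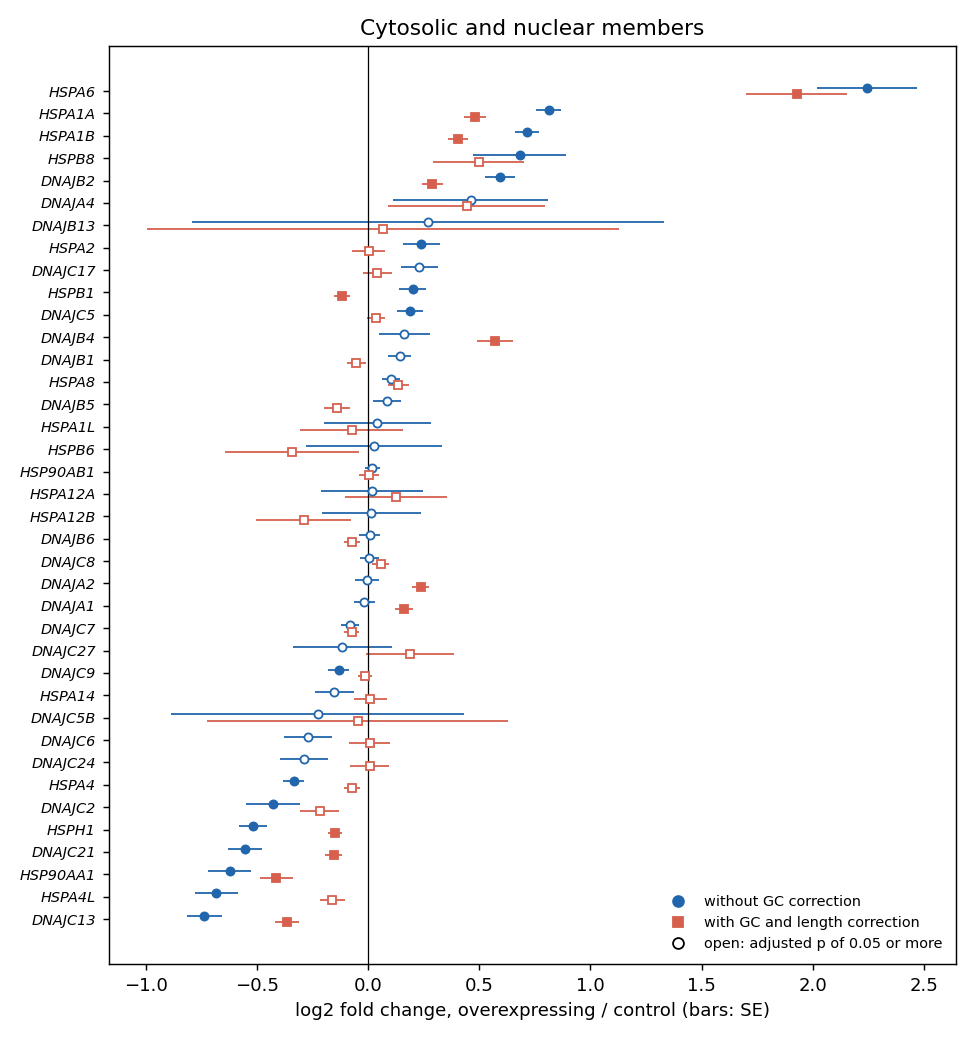
Log2 fold change (x axis) of the 38 cytosolic and nuclear members, with the SE as bars and symbols as in the plot of ER and mitochondrial members. HSPA6, HSPA1A, HSPA1B and DNAJB2 are filled and right of 0 in both fits. DNAJC13, HSP90AA1, DNAJC21 and HSPH1 are filled and left of 0 in both.

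In the mitochondrion, HSPD1 (HSP60) fell. It was at 997, 992 and 949 CPM in the controls and at 818, 749 and 838 CPM in the overexpressing libraries, all lower (log2 fold change -0.29, SE 0.05, adjusted p = 0.0017). The corrected value of -0.14 passed (adjusted p = 0.028), but not with GC content alone corrected (-0.04, adjusted p = 0.45), nor without any library other than overexpressing library 1 (adjusted p from 0.075 to 0.11). HSPE1, its lid, is read from the opposite strand, its gene overlapping that of HSPD1 on chromosome 2. It was at 92.8, 92.1 and 89.2 CPM against 91.4, 82.0 and 87.7 CPM (-0.07, adjusted p = 0.31), and passed as higher when corrected (0.20, adjusted p = 0.0087). With strandedness not given, reads from their overlap cannot be told apart.

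HSPA9 (mortalin), the HSP70 of the matrix and motor of protein import, was at 631, 619 and 604 CPM against 625, 607 and 625 CPM. The groups overlapped as fitted (0.0032, adjusted p = 0.96), and the corrected value of 0.26 passed (adjusted p = 0.0015). DNAJC11, which helps shape the inner membrane, was at 159, 155 and 154 CPM against 179, 172 and 174 CPM. It rose by 0.17, DNAJC30 by 0.28 and DNAJC4 by 0.38 on the log2 scale (adjusted p = 0.0071, 0.0081 and 0.0030). None of these 3 passed when corrected (-0.03, 0.07 and 0.04), and their GC contents were 55.3%, 54.3% and 63.7%. DNAJC4 overlaps NUDT22 on the same strand, so how reads were split where they overlap is uncertain. DNAJC19, a J protein of the import motor, was at 21.5, 23.5 and 24.7 CPM against 24.02, 24.5 and 25.8 CPM. It passed only when corrected (0.32, adjusted p = 0.035), and that call was lost without any library other than control library 3 (adjusted p from 0.060 to 0.11).

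DNAJA3, the matrix partner of HSPA9, was at 77.1, 74.8 and 81.0 CPM against 87.6, 84.6 and 80.0 CPM, with overlapping groups, and passed in neither fit (0.11 and -0.08). DNAJC15, an inner membrane J protein, was at 0.247, 0.264 and 0.178 CPM against 0.533, 0.527 and 0.245 CPM and its log2 fold change of 0.91 (SE 0.46, adjusted p = 0.15) did not pass. It passed when corrected without overexpressing library 3 (1.74, adjusted p = 0.028). DNAJC28 had a value of -0.75 that did not pass (adjusted p = 0.092) except without overexpressing library 3 (-1.04, adjusted p = 0.038). Over the 10 mitochondrial genes 3 were higher and 1 lower in each fit, and only HSPD1 was called the same way in both. The background was 18.3% higher and 19.7% lower as fitted, 10.7% and 11.6% corrected, and 7.1% and 7.88% in both.

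Outside these groups, the membrane J protein DNAJC22 passed in neither fit, and DNAJC25 passed only when corrected (0.34, adjusted p = 0.044), a call lost without any library other than overexpressing library 3 (adjusted p from 0.099 to 0.12). DNAJC25 shares its locus with DNAJC25-GNG10, which had a log2 fold change of -0.47 (corrected -0.42, adjusted p = 0.090), and how reads were split between them is uncertain. The divergent transcript DNAJC3-DT fell (log2 fold change -0.80, adjusted p = 0.025; corrected -1.001, adjusted p = 0.017), from 1.47 to 0.845 CPM. DNAJA2-DT was too low to be tested.

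Across 20 fits, the first and 19 others that changed the scaling, filter, tool, replicate block, correction or set of libraries, 10 members were called in the same direction throughout. HSPA5, DNAJB11, DNAJC1, HSPA1A, HSPA1B, HSPA6 and DNAJB2 rose in all 20, and HSP90AA1, HSPH1 and DNAJC13 fell in all 20. Of all 19101 entries, 3.58% were higher and 4.03% lower in every one of these fits. HSPH1 came closest to the threshold, at an adjusted p of 0.049 in 1 of them. Another 16 members were called in none, and DNAJC10 and HSPB1 were called higher in some fits and lower in others. How many of all entries were called in none, or in both directions, was not counted.

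**Figure D4:**
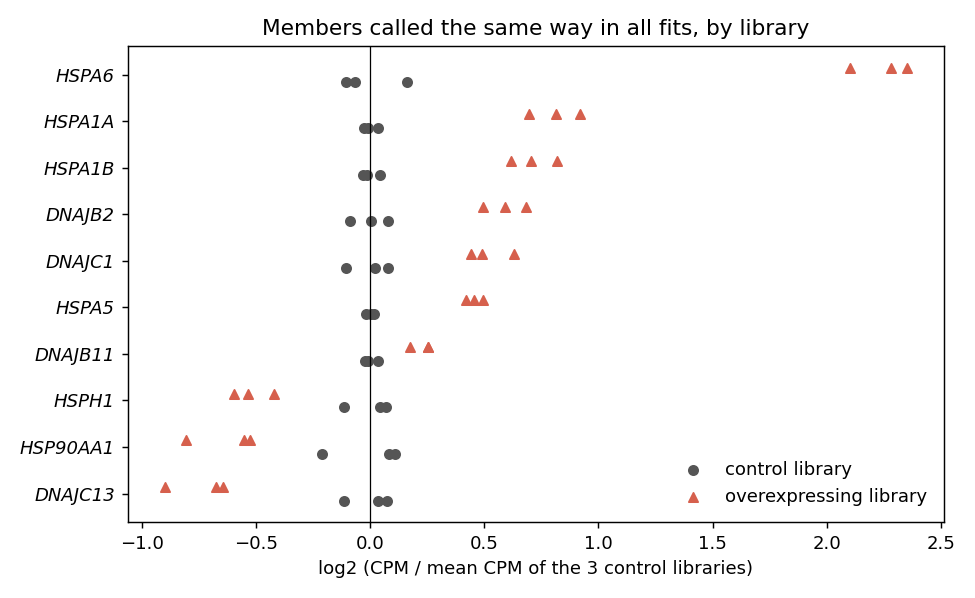
Level of the 10 members called the same way in all 20 fits, as log2 of CPM over the mean of the 3 control libraries (x axis), without GC correction. Circles are control libraries and triangles overexpressing libraries. The 7 rising genes have all triangles right of all circles and the 3 falling genes all triangles left of them. The genes were selected by calls on these same libraries, and 50.7% of all entries had groups apart.

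GC content moved with the results over the whole family. Across the 63 members, the Spearman coefficient between GC content and log2 fold change was 0.63 as fitted and -0.03 when corrected, a description over genes that share the same 6 libraries. The drop follows from the correction, which removes the trend with GC content. Members higher as fitted had a median GC content of 55.3% and those lower 40.7%. HSPA5, higher in both fits, had a GC content of 46.1%, and the part of GC content in its rise was not tested.

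**Figure D5:**
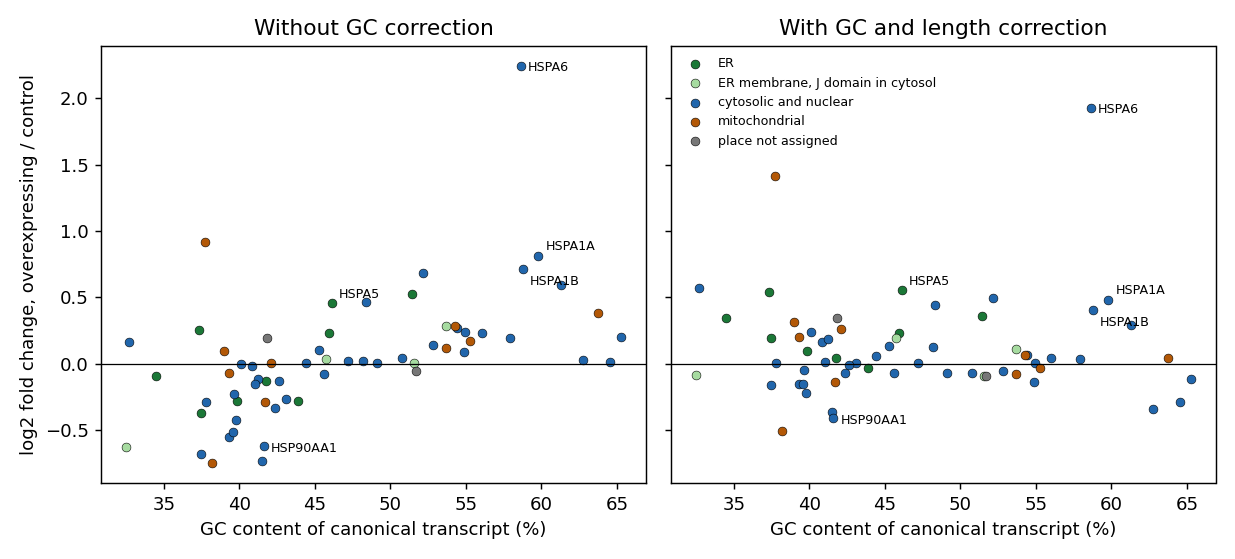
GC content of the canonical transcript in percent (x axis) against log2 fold change (y axis) for the 63 chaperone genes, as fitted (left) and corrected for GC content and length (right), coloured by compartment. The rank correlation is 0.63 on the left and -0.03 on the right, where the trend with GC content was removed. HSPA6, HSPA1A, HSPA1B and HSPA5 stay above 0 and HSP90AA1 stays below.

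Partner genes of each compartment were read from the same fits. Of 22 genes of ER quality control and the unfolded protein response, 12 were higher and 3 lower as fitted, 11 were higher and 0 lower after the correction by edgeR (12 and 0 at an unadjusted p under 0.05), and 7 were higher in both. Among all entries 18.3% were higher and 19.7% lower as fitted, 10.7% and 11.6% after the correction (16.2% and 18% unadjusted), and 7.1% were higher in both. The median log2 fold change was 0.20 as fitted and 0.14 corrected. The transcription factor XBP1 rose by 0.56 (adjusted p = 0.00024; corrected 0.45), the degradation factor HERPUD1 by 0.64 (corrected 0.64), the lectin chaperone CALR by 0.42 (corrected 0.19) and HYOU1, an exchange factor for HSPA5, by 0.34 (corrected 0.21), all past the threshold in both fits. CALR lost its corrected call without control library 1 (0.16, adjusted p = 0.061). The 3 that were lower as fitted, ERO1A, SEC63 and SEL1L, were at -0.35, -0.22 and -0.25. Corrected, SEC63, the J protein of the translocon, and SEL1L were higher (0.18 and 0.18) and ERO1A did not pass (0.07). The call of SEL1L was lost as fitted without overexpressing library 1 (-0.22, adjusted p = 0.053), and corrected without control library 1 (0.17), control library 2 (0.15) or overexpressing library 3 (0.16).

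Of 25 heat shock factor and cytosolic co-chaperone genes, 10 were higher and 8 lower as fitted, 5 and 5 after the correction, and 2 and 3 in both, with medians of 0.01 and -0.0028. The same shares of all entries were 18.3% and 19.7%, 10.7% and 11.6%, and 7.1% and 7.88%. HSF1 itself was higher as fitted (0.23, adjusted p = 0.010) and lower when corrected (-0.14, adjusted p = 0.038). The first call was lost without control library 2 (0.19, adjusted p = 0.050) and the second without any library other than overexpressing library 1 (adjusted p from 0.071 to 0.14). The genes higher in both were the clathrin-uncoating J protein GAK (0.35, corrected 0.12) and the exchange factor BAG1 (0.27, corrected 0.28). Those lower in both included the co-chaperone BAG5 (-0.46, corrected -0.17) and the HSP90 cyclophilin PPID (-0.27, corrected -0.16). Corrected, GAK was lost without control library 1 or 2 (0.12 in each), BAG5 without control library 2 or 3 or overexpressing library 2 or 3 (from -0.17 to -0.14) and PPID without any 1 library (from -0.18 to -0.13). BAG1 and PPID, like HSF1, were named after their values were seen.

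Mitochondrial quality control genes were higher for 10 of 14 genes and lower for 3 as fitted, with a median of 0.22, where 18.3% of all entries were higher and 19.7% lower. The 2 genes higher in both fits were the disaggregase CLPB (0.24, corrected 0.46) and GRPEL1 (0.17, corrected 0.20), the exchange factor of HSPA9. That background was 7.1%. The corrected fit called 2 of the 14 higher and 0 lower, beside backgrounds of 10.7% and 11.6%. At an unadjusted p under 0.05 it gave 2 and 1, beside 16.2% and 18%. The corrected median of the list was -0.03. GRPEL1 was lost as fitted without control library 2 (0.14) or overexpressing library 1 (0.14), and corrected without control library 1 or 2 or overexpressing library 1 or 2 (adjusted p from 0.051 to 0.11). The import protein TIMM44 went from 0.29 to -0.05 with the correction and the protease subunit CLPX from -0.31 to -0.02. CLPB and GRPEL1 were named after their values were seen. The 8 subunits of the cytosolic chaperonin CCT, which folds actin and tubulin, had 2 higher (CCT7 at 0.21 and CCT3 at 0.15) and 4 lower as fitted, TCP1 at -0.22 and CCT6A at -0.25 among them, against the same 18.3% and 19.7% of all entries. CCT3 was lost without control library 2 (0.13) or 3 (0.14). After the correction 0 of the 8 were called by edgeR (1 higher and 2 lower at an unadjusted p under 0.05, as for 16.2% and 18% of all entries), with values from -0.11 to 0.11, except that CCT6A passed without overexpressing library 1 (-0.14, adjusted p = 0.014).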

How the data were processed

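RNA from H1299 cells was read as 3 control and 3 overexpressing libraries, grouped by the labels. The authors deposited raw read counts per gene. Per the labels' protocols, reads were trimmed with fastp, aligned to GRCh38 with HISAT2 and assembled with StringTie. The library kit, strandedness and way of counting were not given in the sources used here.

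From these counts, edgeR 4.0.16 (R 4.3.3; TMM scaling, expression filter with a minimum count of 10, quasi-likelihood F-test on group) tested 19101 entries, with Benjamini-Hochberg adjustment over all of them and a threshold of 0.05. The corrected fit added an offset per library from natural splines (5 degrees of freedom) in GC content and length of the GENCODE 44 canonical transcript. Of all 19201 entries, 19067 were matched to GENCODE 44. GC content was known for 99.3% of the entries tested, and the others were left uncorrected. Across genes, the Spearman coefficient of GC content with fold change was 0.72 before and 0.02 after it, a drop that follows from removing that trend. CPM are TMM-scaled counts per 1e6. Alternatives were DESeq2 1.42.0, its size factors, no filter, a replicate block and leaving out each library. On simulated counts with an added GC trend (19101 genes, 200 changed), 6660 genes were called falsely without the correction and 15 with it. The corrected fit recovered 71% of 1.5-fold and 97% of 2-fold changes. The added trend was linear in GC content, alike in all overexpressing libraries and without a length trend. The changed genes were drawn from those with higher counts. The correction was bound to remove such a trend, so the simulation cannot show whether it suits the real one.

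Named were a set of members by role, others called alike in both fits, and up to 4 pathway genes per direction in a list. The pathway genes were those with the smallest p, except BAG1, PPID, HSF1, CLPB and GRPEL1. Several genes of the same lists with a smaller p than these were not named. The members, lists and rules were chosen with earlier results of these data known. The 8-base heat shock motif, the correction without length and the corrected fits without a library were chosen after seeing the data. Promoters are from RefSeq, and 1 pathway gene is counted in its list but not reported here by name.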

Additional observations from a re-analysis of the deposited data

How the results depend on the processing

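Without the correction, scaling by DESeq2's size factors, no filter, DESeq2's Wald test and leaving out a library turned no named gene's call to the other direction. With GC content and length corrected, 2041 entries were higher and 2223 lower, against 3496 and 3754. Of the members, 17 were higher instead of 15, and 6 lower instead of 12. With the replicate block and this correction together, 1516 entries were higher and 1640 lower, and 16 members higher and 3 lower. With GC content alone corrected, 2202 entries were higher and 2685 lower, and 18 members higher and 6 lower. Leaving out 1 library, with or without the correction, gave 1328 to 3439 entries higher and 1357 to 3730 lower. Members numbered 11 to 18 higher and 3 to 16 lower in these fits. The lower end of each range came from corrected fits, except for members higher, where it came from uncorrected ones. The cause of the trend with GC content was not tested.

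The labels number the replicates 1 to 3 in each group, and the deviations of same-numbered libraries correlated at -0.07, -0.26 and -0.44 over 10091 genes. No library correlated best with its own number. The labels do not say whether same-numbered libraries shared a culture or batch. Trends across a whole library enter these correlations, so they do not settle it. The replicate block gave 2681 entries higher and 3014 lower, and 11 members higher and 9 lower.

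Sign changes are listed where the gene was called in the uncorrected fit or in the alternative. With GC content and length corrected, signs changed so for DNAJC10 (0.19), HSPA13 (0.35), DNAJA1 (0.16), DNAJA2 (0.24), HSPB1 (-0.12), DNAJC11 (-0.031), HSPE1 (0.20), ERO1A (0.072), SEC63 (0.18), SEL1L (0.18), HSF1 (-0.14) and TIMM44 (-0.047), and 14 further members called in neither fit also changed sign. With the replicate block added to that correction, they changed for DNAJC10 (0.19), HSPA13 (0.35), DNAJA1 (0.16), DNAJA2 (0.24), HSPB1 (-0.12), DNAJC11 (-0.031), HSPE1 (0.20), ERO1A (0.071), SEC63 (0.18), SEL1L (0.18), HSF1 (-0.14) and TIMM44 (-0.047). With GC content alone corrected, they changed for HSPA13 (0.35), DNAJA1 (0.26), DNAJA2 (0.29), HSPB1 (-0.11), DNAJC11 (-0.027), HSPE1 (0.25), ERO1A (0.027), SEC63 (0.097), SEL1L (0.065), HSF1 (-0.084), DNAJC5 (-0.064) and DNAJC9 (0.077). Over all fits without 1 library, corrected or not, such a change was met for DNAJC10 (-0.44 to 0.23), DNAJC16 (-0.38 to 0.0093), HSPA13 (-0.20 to 0.40), DNAJB14 (-0.77 to 0.035), DNAJC14 (-0.12 to 0.022), DNAJA1 (-0.044 to 0.19), DNAJA2 (-0.050 to 0.26), HSPA2 (-0.046 to 0.29), HSPB1 (-0.15 to 0.24), DNAJC11 (-0.052 to 0.18), HSPE1 (-0.11 to 0.24), ERO1A (-0.37 to 0.12), SEC63 (-0.25 to 0.21), SEL1L (-0.33 to 0.21), HSF1 (-0.17 to 0.27), TIMM44 (-0.070 to 0.31), CCT7 (-0.0078 to 0.24) and CCT3 (-0.035 to 0.16). Counted without regard to calls, 32 of the 63 members took both signs over these fits, 21 of them not listed here. DNAJB13, DNAJC5B, DNAJC15 and DNAJA4 were under 1 CPM in each library, a depth at which small changes were not detectable.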
